A study of Homo sapiens with 6 samples.

Results

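Human mitochondria carry a small circular genome of their own, and its 37 genes are described here across the untreated and lipoic acid libraries of hemogenic endothelial cells. The genes were taken as all symbols beginning with MT- in the count table, 37 of its 29436 symbols: 13 genes for proteins, 2 for ribosomal RNA and 22 for transfer RNA. The rule reads the symbol and no count. The cells came from H1, an established line of human embryonic stem cells, which was grown with AGM-S3 stroma cells to form blood precursors. On day 8 cells positive for CD34, KDR and CD144 and negative for CD43 were sorted, and cDNA from aliquots of 1000 cells was amplified and sequenced. The 3 untreated libraries (Ctrl) had no added agent, and the 3 lipoic acid libraries (ALA) had 100 µg/ml alpha lipoic acid in the inducing medium. Both groups share the line, the stroma and the gate, so every value describes 1 cell line in co-culture. The study asked how lipoic acid acts on the output of blood progenitors.

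The mitochondrial genome is read from both strands into long precursor RNAs that span most of the circle. Transfer RNAs lie between the other genes, and cutting at their ends releases the ribosomal and messenger RNAs, most of which then receive a short poly(A) tail. All the encoded proteins are core subunits of respiratory complexes I, III and IV or of ATP synthase, which also hold many subunits made from nuclear genes. Endothelial cells draw much of their energy from glycolysis, and hemogenic endothelium is the endothelial state from which blood cells bud. Alpha lipoic acid, bound to protein, is a cofactor of mitochondrial dehydrogenase complexes.

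In the GRCh38 annotation 28 of the 37 genes lie on the plus strand of chromosome M. The other 9, MT-ND6 and 8 transfer RNA genes, lie on the minus strand. Whether counting used strand was not given in the sources used here, so reads of RNA from the opposite strand at the same position cannot be told apart from a gene's own. A pair of messenger RNAs each hold 2 overlapping reading frames, MT-ATP8 with MT-ATP6 and MT-ND4L with MT-ND4. The stretches where these frames meet are printed because the counts of each pair moved by different amounts although both genes lie on 1 molecule. Capitals mark the bases that belong to both genes, 46 in the first stretch (chrM:8507-8592) and 7 in the second (chrM:10740-10786), both on the plus strand with 20 bases to each side.
MT-ATP8/MT-ATP6 overlap: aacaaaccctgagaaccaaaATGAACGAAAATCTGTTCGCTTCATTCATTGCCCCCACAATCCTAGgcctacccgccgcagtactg
MT-ND4L/MT-ND4 overlap: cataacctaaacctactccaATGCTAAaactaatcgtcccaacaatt

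For 6 of the 13 messenger RNAs the annotated gene ends before its stop codon is whole, and the poly(A) tail supplies the missing bases. MT-ATP6 is not counted here because its annotated gene holds a whole last codon. The last base of that codon, 9207, is also the first base of MT-CO3. The last 18 bases of the 6 are printed because these are members whose reading frame ends in the tail that the cDNA method captures. Capitals mark what the gene holds of the last codon. All 6 lie on the plus strand, at chrM:4245-4262 for MT-ND1, chrM:5494-5511 for MT-ND2, chrM:9973-9990 for MT-CO3, chrM:10387-10404 for MT-ND3, chrM:12120-12137 for MT-ND4 and chrM:15870-15887 for MT-CYB.
MT-ND1 3′ end: cattccccctcaaaccTA
MT-ND2 3′ end: ttatactaataatcttaT
MT-CO3 3′ end: tctattgatgagggtctT
MT-ND3 3′ end: gattagactgaaccgaaT
MT-ND4 3′ end: ttaccgggttttcctctT
MT-CYB 3′ end: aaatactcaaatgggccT

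The only transfer RNA gene with more than a few counts was MT-TP, for proline, on the minus strand at chrM:15956-16023. It is the last gene before the non-coding control region, where transcription of both strands begins.
MT-TP: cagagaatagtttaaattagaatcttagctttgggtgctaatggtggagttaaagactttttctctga

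Mitochondrial genes together held a larger part of the counts in every lipoic acid library. Listed by replicate, their share of all counts was 2.45%, 2.82% and 2.66% untreated and 5.02%, 4.39% and 4.98% with lipoic acid. The groups did not overlap, and the ratio of their means was 1.81. An exact two-sided permutation test gave p = 0.1, which is the smallest that 3 libraries against 3 allow. In bulk aliquots, a different make-up of the sorted cells and a different amount of mitochondrial RNA per cell cannot be told apart. The share of cytosolic ribosomal protein genes, an abundant nuclear class, overlapped between the groups (3.64% ± 0.259 untreated and 3.56% ± 0.0800 with lipoic acid, SD, n = 3 each).

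The depth of the libraries ran from 30041494 to 41351951 counts, and 14668 to 15824 symbols had a count. Nearly all nonzero counts (99.13% to 99.34%) were even numbers in untreated replicate 1 and the 3 lipoic acid libraries. The other untreated libraries had 52.01% and 51.97% even numbers, so this property goes partly with the groups. Among the libraries of even counts, the mitochondrial share was 2.45% in the untreated library and at least 4.39% in those with lipoic acid, a log2 ratio of 0.96 against 0.86 over all libraries. Every tested mitochondrial gene was higher in each lipoic acid library than in untreated replicate 1. Untreated replicate 2 stood apart in NEAT1, a nuclear long noncoding RNA, at 241 CPM against 531 to 632 CPM in the other 5 libraries, and it had the highest untreated mitochondrial share. Other genes set replicate 2 apart in both groups. COL1A1, a mesenchymal marker, was at 197, 83.0 and 171 CPM untreated and 88.8, 49.9 and 78.0 CPM with lipoic acid. AFP, a hepatic marker, was highest in replicate 2 of each group, at 7.52 and 77.5 CPM. The labels do not say whether replicates were separate cultures, so p-values measure only how far these libraries spread, and that spread may be technical. Departures from the group mean were weakly shared by untreated and lipoic acid libraries of equal replicate number (r = 0.0852 to 0.0996). Whether such libraries came from the same culture was not tested.

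Levels are given below as CPM, the count scaled to a common library size after TMM normalisation, and each change is lipoic acid over untreated as fitted by the edgeR quasi-likelihood test across 13780 genes. A gene was called at a Benjamini-Hochberg adjusted p under 0.05. Of the 37 mitochondrial genes 16 passed the filter on low counts: all 13 protein genes, both ribosomal RNA genes and MT-TP. All 16 rose and 0 fell. Over all tested genes 47.4% were called, 24.2% higher and 23.3% lower. The median log2 fold change was 0.87 over the 16 mitochondrial genes and -0.01 over all genes tested. In 15 of the 16 the groups did not overlap with lipoic acid above, a pattern shown by 30.4% of all tested genes, beside 28.8% with lipoic acid below.

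**Figure D1:**
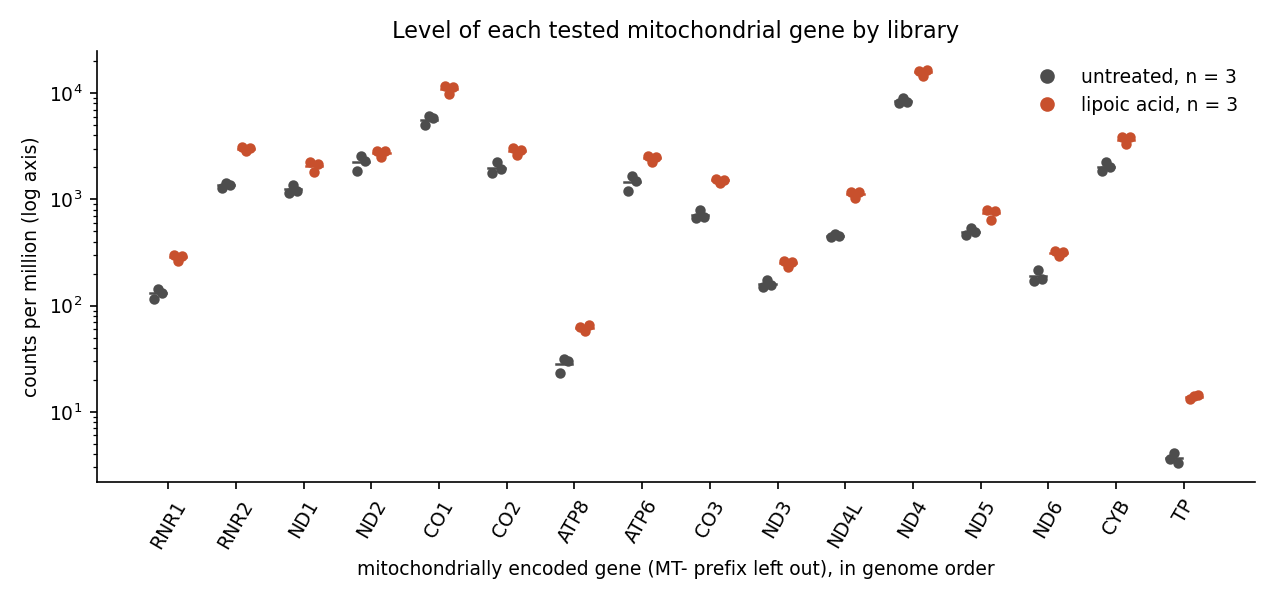
Level in CPM (log axis) of the 16 tested mitochondrial genes in genome order, with 1 point per library and a line at each group mean (n = 3 each). The lipoic acid points lie above the untreated points in every gene except MT-ND2, where the groups overlap.

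The ribosomal RNAs rose more than most messenger RNAs. MT-RNR2 (chromosome M, 1671 to 3229), the large-subunit ribosomal RNA, stood at 1275, 1435 and 1367 CPM in the untreated libraries and at 3090, 2841 and 3062 CPM with lipoic acid. Its rise was 2.21-fold (edgeR, adjusted p = 5.18e-07). MT-RNR1 (648 to 1601), the small-subunit ribosomal RNA, stood at 117, 144 and 130 CPM and then at 298, 260 and 294 CPM, a 2.18-fold rise (edgeR, adjusted p = 7.77e-06). For both genes the lowest lipoic acid library lay well above the highest untreated library. Together they took 0.148% ± 0.00644 of all counts in untreated and 0.329% ± 0.0148 in lipoic acid libraries (SD, n = 3 each). In cells the ribosomal RNAs are far more abundant than mitochondrial messenger RNAs, whereas in these libraries of polyA cDNA they were 5.61% ± 0.152 of mitochondrial counts in untreated and 6.87% ± 0.203 in lipoic acid libraries.

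Among the 7 subunits of complex I, which oxidises NADH, the rises ran from 1.23-fold to 2.48-fold. MT-ND4L (10470 to 10766) rose most of the 13 messenger RNAs, from 438, 471 and 448 CPM to 1171, 1033 and 1163 CPM (2.48-fold, edgeR adjusted p = 3.40e-07). MT-ND4 (10760 to 12137), whose frame follows it on the same molecule, was the most abundant mitochondrial gene in every library. It stood at 8037, 8963 and 8334 CPM and then at 16317, 14414 and 16406 CPM (1.86-fold, edgeR adjusted p = 3.12e-06). By count MT-ND4 ranked second of all genes in each untreated library, at 0.816% to 0.873% of counts, and as number 1 in each lipoic acid library, at 1.45% to 1.64%.

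MT-ND1 (3307 to 4262) and MT-ND6, both subunits of the membrane arm, rose by similar factors. MT-ND1 stood at 1157, 1370 and 1205 CPM untreated and at 2245, 1831 and 2172 CPM with lipoic acid (1.67-fold, edgeR adjusted p = 9.67e-05). MT-ND3 (10059 to 10404) went from 161 ± 13.4 to 250 ± 18.2 CPM (SD, n = 3 each), a 1.56-fold rise. MT-ND5 (12337 to 14148), the longest of these genes, went from 497 ± 35.6 to 739 ± 81.4 CPM, a 1.49-fold rise. The edgeR adjusted p was 0.000139 for MT-ND3 and 0.000417 for MT-ND5, and neither gene had overlapping groups.

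MT-ND2 (4470 to 5511), another complex I subunit, had the smallest rise of all 16 genes. Its levels were 1850, 2564 and 2295 CPM in untreated replicates 1 to 3 and 2875, 2502 and 2866 CPM in lipoic acid replicates 1 to 3. The lowest lipoic acid library lay below the highest untreated library, which was replicate 2. The 1.23-fold rise passed narrowly (edgeR, adjusted p = 0.0371). MT-ND2 was not called without untreated replicate 1 (adjusted p = 0.0611) or 3 (0.0716), nor without lipoic acid replicate 1 (0.114) or 3 (0.109). Its log2 fold change of 0.30 became 0.19 without untreated replicate 1, 0.41 without untreated replicate 2 and 0.57 within the libraries of even counts.

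MT-CYB (14747 to 15887), cytochrome b, is the only mitochondrially encoded subunit of complex III. It stood at 1838, 2240 and 2004 CPM in untreated and at 3829, 3295 and 3864 CPM in lipoic acid libraries (1.81-fold, edgeR adjusted p = 3.17e-05). The groups lay far apart, and untreated replicate 2 was again the highest of its group.

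The 3 subunits of complex IV, cytochrome c oxidase, form its catalytic core. MT-CO1 (5904 to 7445), which holds the haem and copper site where oxygen is reduced, stood at 5004, 6118 and 5843 CPM and then at 11654, 9915 and 11482 CPM (1.95-fold, edgeR adjusted p = 1.53e-05). MT-CO3 (9207 to 9990) went from 712 ± 66.8 to 1508 ± 65.0 CPM (2.12-fold, adjusted p = 2.68e-06). MT-CO2 (7586 to 8269), which takes electrons from cytochrome c, changed least of the 3, from 1784, 2231 and 1927 CPM to 3039, 2644 and 2949 CPM (1.45-fold, adjusted p = 0.000523). None of the 3 had overlapping groups.

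Both ATP synthase subunits of the mitochondrial genome rose. MT-ATP6 (8527 to 9207), part of the proton channel, stood at 1208, 1672 and 1485 CPM and then at 2547, 2232 and 2512 CPM (1.67-fold, edgeR adjusted p = 0.000311). MT-ATP8 (8366 to 8572), the shortest protein gene of this genome, was the lowest of the 13, at 23.3, 31.3 and 29.99 CPM untreated and 62.5, 57.9 and 65.7 CPM with lipoic acid (2.20-fold, adjusted p = 3.57e-05). Of its 207 bases 161 lie in no other gene, and how reads over the shared bases were assigned was not given in the sources used here.

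On the minus strand 2 genes had levels. MT-ND6 (14149 to 14673), the only protein gene of that strand, stood at 172, 214 and 180 CPM untreated and at 325, 294 and 322 CPM with lipoic acid (1.66-fold, edgeR adjusted p = 0.000101). The plus-strand sequence opposite MT-ND6 forms the untranslated end of the MT-ND5 messenger RNA, and without a stated strand setting its reads may be counted as MT-ND6. Genes of the minus strand made up 0.724% ± 0.0334 of mitochondrial counts in untreated and 0.686% ± 0.0180 in lipoic acid libraries (SD, n = 3 each), and the groups overlapped (exact permutation p = 0.2). As a share of all counts, plus-strand genes went from 2.63% ± 0.182 to 4.76% ± 0.348 and minus-strand genes from 0.0192% ± 0.00186 to 0.0329% ± 0.00157.

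MT-TP, the proline transfer RNA printed above, had the largest fold of the 16 genes at a low level. Its counts were 118, 123 and 100 in the untreated and 534, 446 and 590 in the lipoic acid libraries, which is 3.63, 4.09 and 3.32 CPM against 13.3, 14.1 and 14.3 CPM. The rise was 3.77-fold (edgeR, adjusted p = 1.10e-05), and the groups lay far apart. Of the other 21 transfer RNA genes 20 were at 0 throughout. With even counts halved, a total of 0 allows a level of up to 0.0393 CPM in the untreated group and 0.0530 CPM in the lipoic acid group for each of them. MT-TQ, for glutamine, had 1 count in untreated replicate 2 and 2 in lipoic acid replicate 3. Mature transfer RNAs are short and carry no poly(A) tail, so a polyA method is not made to measure them, and counts at MT-TP can come from longer RNAs that cross it.

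The members did not rise in proportion. Within the mitochondrial counts, 13 of 16 genes had shares that did not overlap between the groups, 7 higher and 6 lower with lipoic acid. On the different scale of CPM, 59.1% of all tested genes did not overlap. Shares of a whole are tied, so a larger share of some genes lowers that of others. MT-ND2 fell from 8.38% ± 0.641 to 5.75% ± 0.0159 of mitochondrial counts and MT-CO2 from 7.44% ± 0.235 to 6.02% ± 0.0763 (SD, n = 3 each). MT-ND4L went the other way, from 1.71% ± 0.0952 to 2.35% ± 0.0161, and MT-CO1 from 21.3% ± 0.653 to 23.0% ± 0.280. For each of the 13 genes the exact permutation p was 0.1, the smallest the design allows.

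An edgeR fit that took the summed mitochondrial messenger RNA of each library as its library size gave a test of these differences. On that scale 6 mitochondrial genes rose and 3 fell, while over all genes 79.5% were called, 4.92% higher and 74.6% lower. MT-ND4L (1.39-fold, adjusted p = 0.000216), MT-RNR2 (1.24-fold, 0.00285) and MT-TP (2.13-fold, 0.000138) were higher. MT-ND2 (1.44-fold, 3.32e-05) and MT-CO2 (1.22-fold, 0.00419) were lower. These 5 genes stayed called in all 8 other fits on this scale. MT-RNR1, MT-ATP8 and MT-CO3 also rose and MT-ND5 fell, but none of these 4 was called without untreated replicate 3 (adjusted p 0.0552 to 0.101), which brought the counts to 3 higher and 2 lower. With a replicate block they were not called either (adjusted p 0.0687 to 0.0855). MT-ATP8 kept its call in 3 of the 8 other fits, MT-ND5 in 4, MT-RNR1 in 5 and MT-CO3 in 6. The log2 changes themselves stayed near their size without untreated replicate 3, at 0.30 for MT-RNR1 (0.30 over all libraries), 0.37 for MT-ATP8 (0.32), 0.23 for MT-CO3 (0.26) and -0.27 for MT-ND5 (-0.26). MT-ND4, MT-CO1, MT-CYB, MT-ATP6, MT-ND1, MT-ND3 and MT-ND6 did not pass. The groups still did not overlap for MT-CO1 (lipoic acid above) and MT-ND3 (lipoic acid below). MT-CO1 was called higher without lipoic acid replicate 2 (edgeR, adjusted p = 0.0286). It was also called with the median ratio of the mitochondrial protein genes as library size (0.0412). MT-ND4 and MT-CO1 together held 53.1% ± 0.941 of mitochondrial counts in untreated and 55.9% ± 0.172 in lipoic acid libraries, so they weigh on the scale itself.

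**Figure D2:**
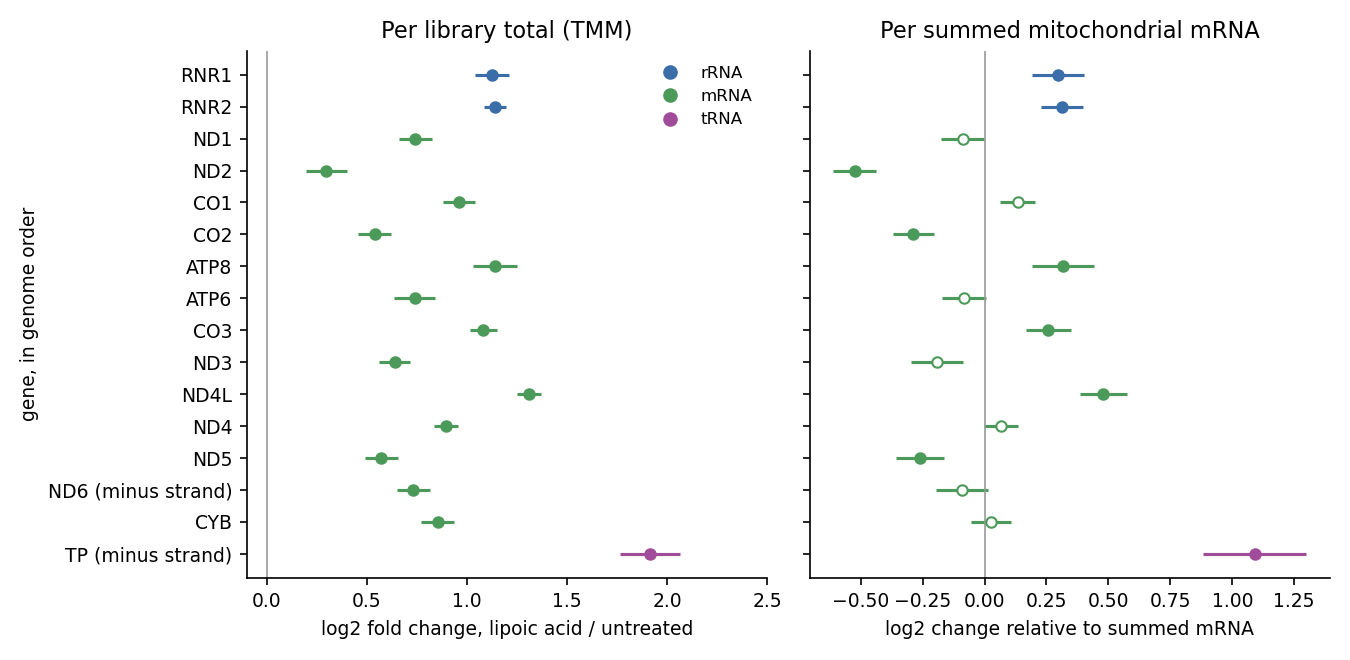
Log2 change with its SE for the 16 tested mitochondrial genes in genome order, per library total (left) and per summed mitochondrial messenger RNA (right), coloured by class. Filled points passed an adjusted p of 0.05, and open points on the right did not. All points on the left lie above 0, and on the right MT-ND2, MT-CO2 and MT-ND5 lie below 0 with their calls.

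Genes on 1 molecule differed in how far their counts moved. The count of MT-ND4L as a percentage of MT-ND4 was 5.45%, 5.25% and 5.37% in the untreated libraries and 7.18%, 7.17% and 7.09% with lipoic acid. MT-ATP8 as a percentage of MT-ATP6 was 1.93%, 1.87% and 2.02% and then 2.45%, 2.60% and 2.62%. In both messenger RNAs the count of the upstream frame thus gained on that of the downstream frame, by 1.33-fold and 1.32-fold. The groups did not overlap (exact permutation p = 0.1 for each, the smallest possible). For both pairs, how reads over the shared bases were assigned was not given in the sources used here. Whether the RNA itself differed along its length was not tested. Ribosomal RNA as a percentage of messenger RNA went from 5.95% ± 0.170 to 7.38% ± 0.234. The 2 ribosomal RNAs kept a similar ratio to each other, 10.5 ± 0.483 MT-RNR2 counts per MT-RNR1 count in untreated and 10.6 ± 0.299 in lipoic acid libraries (SD, n = 3 each), and these groups overlapped. MT-ND6 went from 37.9% ± 1.91 to 42.7% ± 2.58 of the MT-ND5 count. Within the libraries of even counts the gains of MT-ND4L over MT-ND4 and of MT-ATP8 over MT-ATP6 were 1.31-fold and 1.33-fold.

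**Figure D3:**
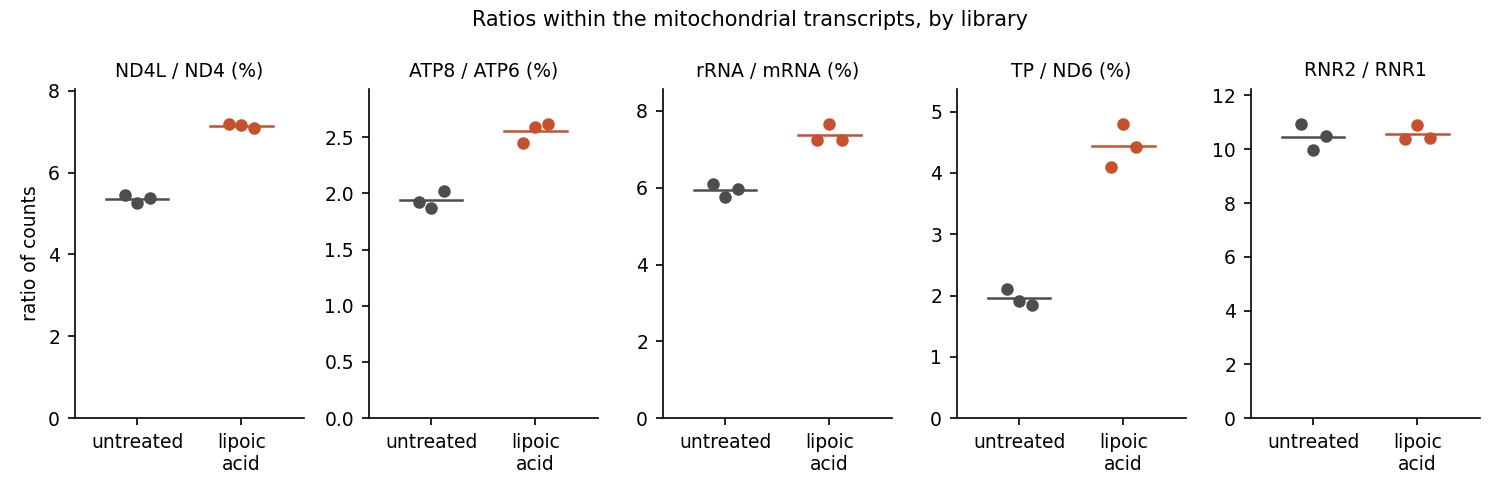
Ratios of counts between mitochondrial transcripts, 1 point per library with a line at each group mean (n = 3 each) and axes from 0. The first 4 panels (in percent) separate the groups, and the ratio of MT-RNR2 to MT-RNR1 overlaps near 10.5.

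Per kilobase of gene, levels spanned a wide range within the family. In the untreated libraries MT-ND4 was highest at 6128 ± 343 CPM per kilobase, followed by MT-CO1 at 3667 ± 376 and MT-CO2 at 2896 ± 334 (SD, n = 3 each), the ranges of the last 2 just overlapping. MT-ND2, MT-ATP6 and MT-CYB came next at 2146 ± 346, 2137 ± 343 and 1777 ± 177 CPM per kilobase, and each overlapped its neighbour. MT-ND4L at 1523 ± 56.5 and MT-ND1 at 1302 ± 117 followed with separate ranges. MT-CO3 at 908 ± 85.2 overlapped MT-RNR2 at 872 ± 51.5, and MT-ND3 (465 ± 38.6), MT-ND6 (360 ± 42.7) and MT-ND5 (274 ± 19.7) each stood apart. At the low end MT-RNR1 (137 ± 14.3) and MT-ATP8 (136 ± 20.8) overlapped each other, above MT-TP at 54.1 ± 5.67 CPM per kilobase. Genes on 1 molecule stood far apart on this scale, MT-ATP8 at 136 beside MT-ATP6 at 2137 and MT-ND4L at 1523 beside MT-ND4 at 6128. These values divide by the whole gene length, shared bases included, and are not read as amounts of RNA. With lipoic acid the order of the means held except that MT-ND4L moved from rank 7 to 4, MT-ND2 from 4 to 7, and MT-RNR1 and MT-ATP8, whose ranges overlapped here too, changed places. Neighbouring ranges with lipoic acid also overlapped from MT-CO2 through MT-ND4L and MT-ATP6 to MT-CYB. The same held from MT-ND1 through MT-CO3 to MT-RNR2, so the ranks within these runs are not firm.

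Properties of the genes went little with the size of their rise. Over the 15 messenger and ribosomal RNA genes, which share libraries and precursor RNAs, Spearman's rho with the log2 fold change was -0.23 for level per kilobase, -0.19 for position along the plus strand, -0.11 for length, -0.03 for GC content and 0.07 for the share of A. The 6 messenger RNAs whose annotated gene ends before a whole stop codon had log2 fold changes from 0.30 to 1.08 with a median of 0.80. The other 7, with MT-ATP6 placed among them by its annotation, ran from 0.54 to 1.31 with a median of 0.74. Both sets thus covered much the same range.

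Beside the nuclear genes of the same complexes, the mitochondrial ones took a larger part with lipoic acid. The 13 mitochondrial messenger RNAs, MT-ATP6 and MT-ATP8 among them, were summed against 57 nuclear subunit genes of complexes I, III and IV only. Their sum was 6.66, 7.10 and 7.43 times the nuclear sum in the untreated libraries and 14.4, 12.4 and 14.7 times with lipoic acid (exact permutation p = 0.1, the smallest possible). Of 54 nuclear subunit genes tested, 3 rose, 17 fell and 34 did not pass, beside 24.2% higher and 23.3% lower over all tested genes. The fall count was 7 without lipoic acid replicate 3, 10 without replicate 2 and 11 without replicate 1, and the rise count was 5 without untreated replicate 2. For complex I the median log2 fold change was 0.73 over the mitochondrial and -0.16 over the nuclear subunits, and for complex IV it was 0.96 and -0.19. For complex III it was -0.17 over the nuclear subunits beside 0.85 for MT-CYB. CYC1, cytochrome c1 of complex III, fell from 53.5 ± 4.49 to 32.3 ± 1.08 CPM (SD, n = 3 each, edgeR adjusted p = 8.54e-05), and NDUFS3 of complex I from 76.5 to 58.5 CPM, though another gene on its strand covers 19.6% of its exons. NDUFS1 of complex I, 1 of the 3 that rose, went from 155 to 192 CPM (edgeR adjusted p = 0.00223). Its call was lost with the trend on GC content and length removed (adjusted p = 0.138). Nuclear subunits of ATP synthase were not analysed here.

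Among genes that transcribe the mitochondrial genome, some rose and some fell. TFB2M, the factor that opens the promoter for the mitochondrial RNA polymerase, stood at 13.5, 13.7 and 14.7 CPM untreated and at 27.1, 26.9 and 27.8 CPM with lipoic acid, a 1.95-fold rise (edgeR, adjusted p = 3.08e-05). POLRMT, the polymerase itself, was lower, at 22.3, 19.7 and 20.7 CPM and then 13.9, 14.4 and 15.6 CPM (1.42-fold, adjusted p = 0.00275). TFAM, which packs the genome and starts transcription, overlapped between the groups at 36.7 ± 5.39 and 35.5 ± 1.45 CPM (adjusted p = 0.737). TEFM, the elongation factor, was at 3.21 and 4.08 CPM (adjusted p = 0.233), and an antisense gene covers 26.2% of its exons. Of all 11 genes on this list 4 rose, among them TOP1MT, the mitochondrial topoisomerase, and TFB1M, which methylates the small ribosomal RNA, 3 fell (5 without untreated replicate 2) and 4 did not pass. With 24.2% of all tested genes higher and 23.3% lower, these counts are not read as a property of the list.

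Genes that process, stabilise or degrade mitochondrial RNA were called in both directions. Of 23 tested processing genes 4 rose and 3 fell, with a median log2 fold change of -0.02, beside 24.2% higher and 23.3% lower and a median of -0.01 over all tested genes. FASTKD2 and TBRG4, RNA-binding proteins of the FASTK family, fell by 0.43 and 0.34 on the log2 scale, and FASTKD3 of the same family rose by 0.60. The count of rises was 2 without untreated replicate 3 or lipoic acid replicate 1 and 1 without lipoic acid replicate 3. HSD17B10, a subunit of the enzyme that cuts precursors at the front of transfer RNAs, fell by 0.30 on that scale. Its call was lost without lipoic acid replicate 3 (-0.23, adjusted p = 0.0872) and with the trend on GC content and length removed (-0.16, adjusted p = 0.0882). Of 10 tested stability and decay genes 3 rose and 1 fell. LRPPRC, which protects mitochondrial messenger RNAs, rose 1.29-fold from 114 ± 5.77 to 148 ± 9.15 CPM (SD, n = 3 each, edgeR adjusted p = 0.00163), and its partner SLIRP did not pass (16.3 and 15.1 CPM, adjusted p = 0.495). PNPT1, a nuclease of mitochondrial RNA decay, rose 1.44-fold from 48.4 ± 3.15 to 69.7 ± 2.14 CPM (adjusted p = 0.000273), and PDE12, which removes poly(A) tails, fell from 34.5 to 24.2 CPM (adjusted p = 0.00333).

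Several genes that maintain the mitochondrial DNA rose. Of 14 tested, 5 rose and 9 did not pass (1 fell without untreated replicate 1), with a median log2 fold change of 0.19. Over all tested genes 24.2% were higher and 23.3% lower, so neither this count nor the next is read as a property of its list. POLG, the catalytic subunit of the DNA polymerase, went from 21.7 to 30.6 CPM (adjusted p = 0.00222) and MGME1, a nuclease of replication, from 9.47 to 15.1 CPM (0.00381). Of 10 biogenesis regulators 1 rose and 3 fell (0 rose without untreated replicate 3 or lipoic acid replicate 1 or 2, and 1 fell without lipoic acid replicate 1). PPARGC1A, the coactivator PGC-1 alpha, fell from 29.7 to 20.3 CPM (adjusted p = 0.00149). PPARGC1B, its relative, also fell, and leaving out lipoic acid replicate 1 (adjusted p = 0.0554) or 3 (0.0636), or keeping only the libraries of even counts (0.120), ended that call. PPRC1 of the same family was the 1 regulator that rose, from 25.8 to 32.0 CPM (edgeR adjusted p = 0.0274).

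**Figure D4:**
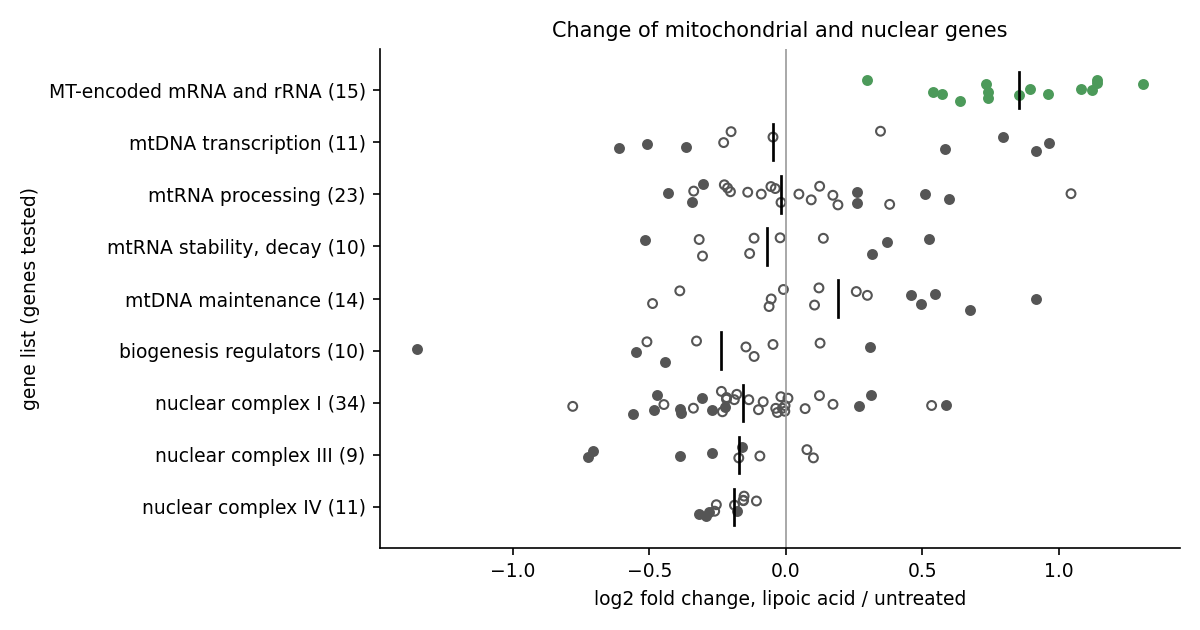
Log2 fold change of each tested gene by list, with a line at the list's median, filled points for called genes and open points for the others. The 15 mitochondrially encoded messenger and ribosomal RNA genes all lie right of 0, and the medians of the nuclear lists lie between -0.24 and 0.19.

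Transcripts listed as cell type markers differed between the same libraries, and each count of called markers stands beside 24.2% higher and 23.3% lower over all tested genes. Summed over 10 epithelial markers the level was 226 to 249 CPM in untreated and 410 to 476 CPM in lipoic acid libraries (6 of 7 tested rose, GRHL2 at 0 in all libraries). Over 11 endoderm and hepatic markers it was 68.0 to 77.8 and 166 to 234 CPM (7 of 9 rose, 1 fell, none at 0), and over 11 megakaryocytic markers 16.1 to 17.0 and 45.4 to 55.5 CPM (5 of 7 rose, 1 fell, PPBP, GP1BB and TUBB1 at 0). Over 15 endothelial markers the sum was 17470 to 17723 CPM untreated and 14128 to 14714 CPM with lipoic acid (10 of 15 fell, 2 rose, none at 0). Over 10 blood markers it was 397 to 432 and 329 to 359 CPM (3 of 6 fell, 1 rose, SPN and PTPRC at 0). Summed levels overlapped for 3 lists although members moved. Over 12 mesenchymal markers the sum was 1965 to 2593 and 1496 to 2045 CPM (6 of 11 tested fell, among them MYL9, THY1, ACTA2 and LUM without overlap, and TAGLN rose, none at 0). Over 8 cardiac markers it was 18.02 to 25.5 and 23.2 to 24.1 CPM (TNNT2 and TNNI1 fell, ACTN2 and TTN rose, 5 tested, none at 0). Over 13 erythroid markers it was 74.6 to 87.3 and 71.1 to 94.9 CPM (GYPB rose, 2 tested), and HBE1, HBG1, HBA1, HBA2, AHSP and SLC4A1 were at 0. EPOR, which did not pass, held nearly all of the erythroid sum, at 74.0 to 87.2 and 69.7 to 93.9 CPM. Pluripotency markers summed to 81.4 to 85.9 and 93.5 to 96.3 CPM (3 of 5 rose, 1 fell, POU5F1 and SOX2 at 0). The part of these cell types in the mitochondrial values was not tested.

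MTRNR2L3, a nuclear copy of MT-RNR2 sequence, had 6, 0 and 12 counts in the untreated and 50, 44 and 74 in the lipoic acid libraries. It was called higher (edgeR, adjusted p = 0.00979). Of the other 10 copies of that family 8 had no count, and MTRNR2L12 and MTRNR2L4 had at most 5 in a library. Such copies resemble the mitochondrial gene, so reads may be placed on either, and how reads with several alignments were handled was not given in the sources used here. How alike the sequences are was not compared.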

How the data were processed

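Polyadenylated RNA of sorted cells was measured in 3 untreated and 3 lipoic acid libraries. The authors deposited raw counts per gene symbol, for which the submitters' processing notes name HISAT2, featureCounts and DESeq2 on hg38, but the sources used here give no versions, options, annotation or strand setting. Counts were used as deposited, and no column was left unused. Genes were kept with filterByExpr, scaled by TMM and tested with group as the only term in edgeR 4.0.16 under R 4.3.3, with Benjamini-Hochberg adjustment over all 13780 genes. A second fit used the summed mitochondrial messenger RNA as library size. The procedure was tested on simulated data. Alternatives with limma 3.58.1 and DESeq2 1.42.0, other scalings, filters, subsets of libraries and a trend with GC content and length were also run. That trend used GENCODE v29 transcripts, which also gave positions and sequences on GRCh38 (29221 symbols and all 37 members found). For shares and ratios the test was an exact permutation of the library labels, two-sided. Floors (3 counts over a group, even counts halved) cover counting error alone, since amplified cDNA without molecular barcodes does not count molecules.

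The members and gene lists were chosen with earlier results of these data known. All mitochondrial protein and ribosomal RNA genes and tested transfer RNA genes are named, with 6 fixed regulators and, per nuclear list, up to 4 called genes of lowest p. MTRNR2L3, NEAT1 and the marker genes were named after their values were seen.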

Additional observations from a re-analysis of the deposited data

How the results depend on the processing

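With 17 other settings per gene, 15 of the 16 mitochondrial genes kept their direction and call in all 17 and MT-ND2 in 12, so 15 or 16 genes were called higher and 0 lower. The replicate numbers were not taken as pairs, since the labels do not give a pairing. Each library still correlated best with its own number (r = 0.0996, 0.0852 and 0.0975 for equal numbers). For unequal numbers r ran from -0.0759 to -0.00325. With a replicate block 15 mitochondrial genes were called higher (MT-ND2 at edgeR adjusted p = 0.0534), and 3 instead of 6 relative to mitochondrial messenger RNA. Leaving out 1 library gave 3 to 7 there. The alternatives for ratios between genes and named nuclear genes, and the even libraries for nuclear lists, were chosen after seeing the data. With the 4 libraries of even counts, log2 ratios of shares were 0.96 for all mitochondrial genes, 0.95 for messenger RNA, 1.22 for ribosomal RNA and 0.96 for plus-strand genes. The share difference was 2.57 percentage points without the 100 highest nuclear genes, against 2.15. In the even libraries some small differences changed sign: 0.0886 points for the MT-ATP6 share, -0.368 for MT-ND4, -0.0492 for the log2 MT-RNR2 to MT-RNR1 ratio and 0.18 for the TFAM log2 fold change. Leave-one-out ranges that crossed 0 were -0.0278 to 0.0861 points for the MT-CYB share, -0.0192 to 0.0474 for the log2 ratio of the ribosomal RNAs and -0.139 to 0.0643 for TFAM. For nuclear lists, the even libraries gave 1 higher and 5 lower among RNA processing genes and 0 higher and 1 lower among biogenesis regulators, of which DESeq2 called 2 higher. Leaving out 1 library gave 2 to 5 lower for transcription, 1 to 4 higher for processing, 0 to 1 lower for DNA maintenance, 0 to 1 higher and 1 to 4 lower for biogenesis, and 2 to 5 higher and 7 to 17 lower for nuclear subunits. The cause of these shifts was not tested. For the transfer RNAs at 0, levels under the limits given for a total of 0 could not be seen.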
